A study of Mus musculus with 24 samples.

Results

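Mitotic kinesins are the motor proteins that build the spindle, move chromosomes along it and organise the cleavage of the cell. Their mRNAs were followed in C2C12 cells, an established line of mouse myoblasts, on 24 Affymetrix arrays. Of 9 kinesin genes named for the purpose (Kif11, Kif15, Kif20a, Kif20b, Kif22, Kif23, Kif2c, Kif4 and Cenpe), 7 had a probe set assigned to them alone, out of 12393 genes with such a probe set. These 7 genes had 16 probe sets, and Kif15 and Kif20b were not analysed here. All 7 passed the filter on low values, as did 8600 genes in all. To pass, a gene had to exceed an array's 40th percentile of signal on 3 or more arrays, and each of the 7 lay above that percentile on every proliferating and differentiating array.

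The cells carried 1 of 2 siRNAs, either against IFT88 (the IFT88KD cells) or a negative control siRNA, and each siRNA was combined with 4 culture states, with 3 arrays in each of the 8 groups. Proliferating cells were attached, with 20% fetal bovine serum in the medium. For quiescence the cells were held in suspension in that medium, and replated cells were such suspended cells taken 2 h after return to a surface. Differentiating cells spent 48 h attached in medium with 2% horse serum. The labels give neither the siRNA sequences nor whether replicates were separate cultures, so p-values measure the spread between these arrays, which may be technical.

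The arrays carried the marks of myoblasts. Myod1, Myf5, Cdh15, Des and Itga7 all passed the filter, and the muscle genes Myog, Myh3, Tnnt2, Actc1, Ckm and Mymk all rose in differentiating control cells. None of 3 endothelial and none of 3 epithelial markers passed the filter. The macrophage markers Cd68 and Csf1r and the fibroblast markers Pdgfra and Pi16 did pass. Ift88 mRNA was 4.31 ± 0.12 log2 (mean ± SD, n = 3) in quiescent control and 3.63 ± 0.24 in quiescent IFT88KD cells, a fall of 0.69 (SE 0.16, limma adjusted p = 0.0113). Its change did not pass in proliferating (-0.52), replated (-0.59, adjusted p = 0.0535) or differentiating cells (-0.01). Median signal was 3.60 to 3.82 log2 in the other states but 2.96 in replated cells, so changes into or out of the replated state carry this difference of scale. The number of arrays limits the precision.

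A kinesin couples the splitting of ATP to steps along a microtubule or to the removal of tubulin from its end. Mitotic members are made mostly in late S phase, G2 and mitosis, and their mRNAs fall when cells leave the cycle. C2C12 myoblasts leave it reversibly when they lose attachment and lastingly when they fuse into myotubes. In bulk RNA, fewer cells in mitosis and less kinesin mRNA per cell cannot be told apart. Levels are compared below within a probe set only, since arrays do not allow levels of different genes to be ranked.

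Among the spindle motors, Kif11 encodes the motor that slides antiparallel microtubules apart and so separates the spindle poles. On the control arrays it measured 6.38, 6.68 and 6.64 log2 in proliferating cells and 1.23, 1.33 and 1.5 in quiescent cells. Every quiescent array lay below every proliferating array, and Kif11 fell by 5.21 log2 (SE 0.17, adjusted p = 1.23e-16 in limma). Kif2c encodes a motor that does not walk but depolymerises microtubules, and it corrects faulty attachments of chromosomes. It fell by 4.08 (SE 0.15), from 5.80 to 6.29 on proliferating to 1.63 to 2.20 on quiescent control arrays.

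The chromosome motors behaved alike. Kif4 and Kif22 encode chromokinesins, which bind chromosome arms and push them away from the poles. Kif4 fell by 3.58 (SE 0.14) and Kif22 by 4.46 (SE 0.18) between proliferating and quiescent control cells. Cenpe encodes the kinetochore motor that carries chromosomes to the spindle equator. It measured 6.91, 7.45 and 7.30 on proliferating and 0.87, 1.02 and 1.58 on quiescent control arrays. It fell by 6.06 (SE 0.36).

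The cytokinesis motors are Kif23, which forms the centralspindlin complex with Racgap1, and Kif20a, which brings the chromosomal passenger complex to the central spindle. Kif23 fell by 5.45 (SE 0.17) and Kif20a fell by 5.18 (SE 0.17). All 7 kinesins therefore fell on entry into quiescence in control cells, by 3.58 to 6.06 with a median of 5.18. Over all genes 29.4% fell and the median change was 0.14. On quiescent control arrays Cenpe, Kif11 and Kif2c lay under the filter percentile throughout, and the other 4 lay between percentiles 36.4 and 41.9, so the sizes of the falls are uncertain at their low end. The 7 calls held in each of the alternative fits run.

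The 7 kinesins also fell between proliferating and quiescent IFT88KD cells. Kif4 fell by 3.08, the least, and Cenpe fell by 4.44, the most of the 7, with a background of 29.3% of genes lower. With either siRNA the quiescent arrays lay below all proliferating arrays of that siRNA for each kinesin, as they did for 31.2% of all genes in control and 30.8% in IFT88KD cells.

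**Figure D1:**
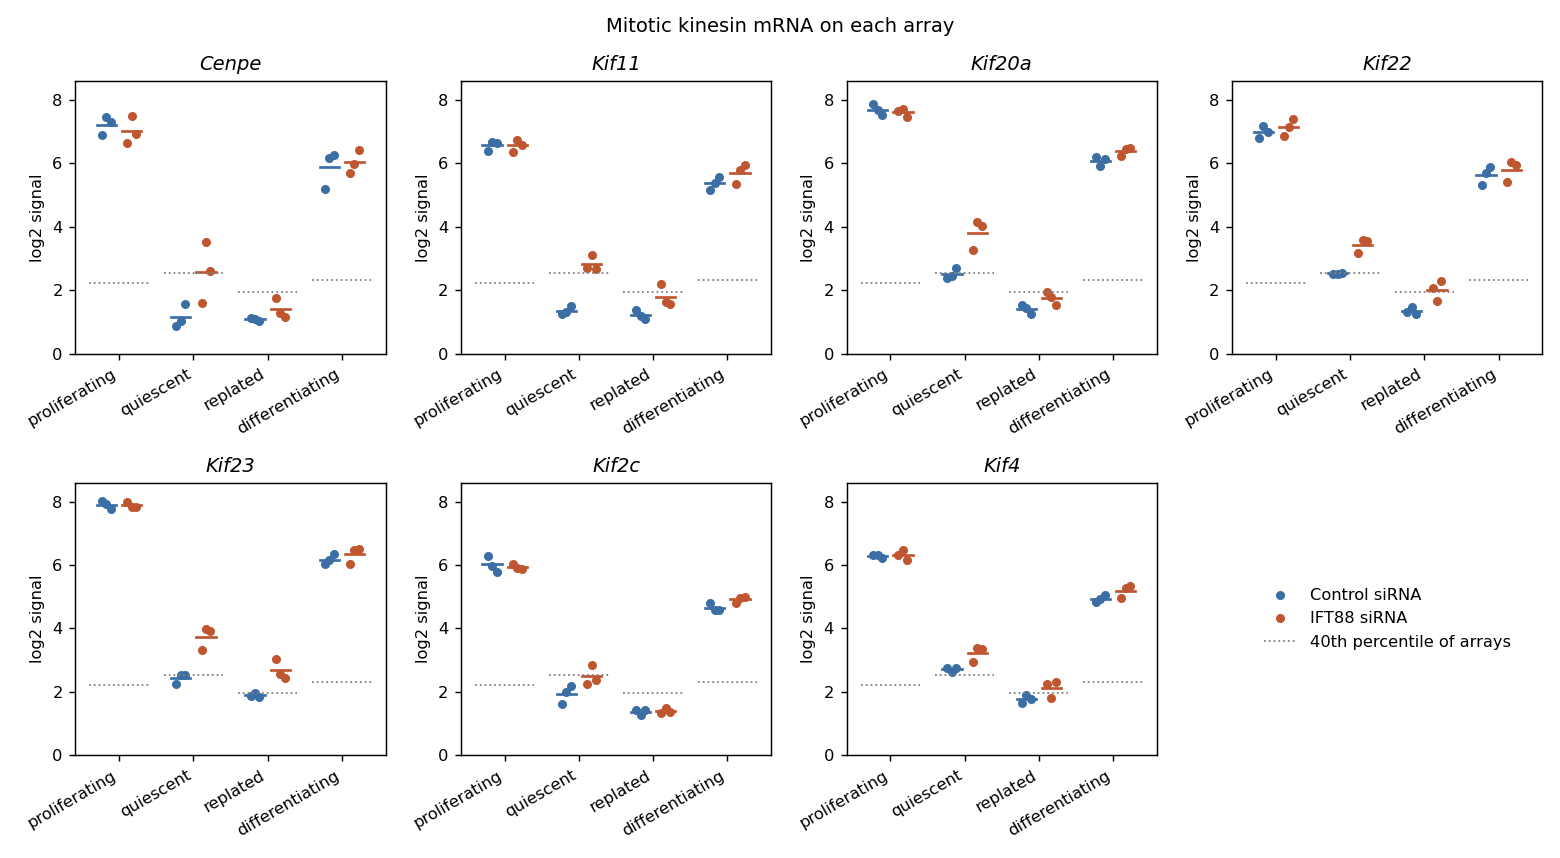
Log2 signal of the 7 kinesins (one panel each) on every array, by culture state; points are arrays, short bars the mean of 3 arrays, and dotted lines the lowest 40th percentile of the arrays of a state. Proliferating arrays stand highest, differentiating arrays next, and quiescent control arrays near or under the dotted line, with the IFT88KD quiescent points above the control points.

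Differentiating cells held the kinesins at an intermediate level. In control cells after 48 h of low serum, Kif23 was at 6.02, 6.16 and 6.35 log2, against 8.01, 7.91 and 7.76 in proliferating cells. Kif23 fell by 1.72 (SE 0.17), Kif20a by 1.6 (SE 0.17), Kif2c by 1.37 (SE 0.15), Kif22 by 1.36 (SE 0.18), Kif4 by 1.35 (SE 0.14), Cenpe by 1.35 (SE 0.36) and Kif11 by 1.2 (SE 0.17). The limma adjusted p was at most 0.00307, and 30.3% of all genes fell in this comparison. All 7 were higher in differentiating than in quiescent control cells, by 2.23 for Kif4 to 4.72 for Cenpe, where 26.3% of genes were higher. The arrays of these groups did not overlap for any of the 7, with 34.7% of all genes separated downwards from proliferating and 28.9% separated upwards from quiescent cells.

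The same order held for all 7 in IFT88KD cells. Between proliferating and differentiating IFT88KD cells they fell by 0.87 for Kif11 to 1.55 for Kif23, with adjusted p of at most 0.0268 and 28% of all genes lower. Without IFT88KD proliferating replicate 2 (adjusted p = 0.133) or without IFT88KD differentiating replicate 1 (adjusted p = 0.109) or 2 (adjusted p = 0.0626) Cenpe no longer passed, which left 6 of 7. In the order of the 8 group means, both proliferating groups came first for every kinesin and both differentiating groups next. The 2 proliferating groups overlapped in range for all 7, and the 2 differentiating groups for all except Kif20a and Kif2c.

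The promoters of these genes were searched because the 7 mRNAs fell together. RefSeq's table of GRCm38.p6 held a window of 300 bases, from 250 bases before to 50 bases after the start, for 6 of the 7 genes. On both strands 3 motifs were searched, and matches to different motifs did not overlap in these windows. The cell cycle genes homology region (CHR, letters TTTGAA) is known as a site of the complex that represses mitotic genes in resting cells. The CCAAT box (letters CCAAT) is known as a site of NF-Y. Letters of an E2F site were TTTGGCGC, TTTCGCGC, TTTCCCGC or TTTGCCGC. A CHR was found in 5 of the 6 windows (Kif11, Kif22, Kif23, Kif2c and Kif4), against 17.9% of 32841 windows of the same length. A CCAAT box was found in 5 (Cenpe, Kif11, Kif22, Kif23 and Kif4), against 37.4%. The E2F letters were found in 0 of 6, against 2.27%. The first 2 motifs were not particular to these kinesins. Of 21 partners and spindle regulators with a window, 15 held a CHR and 15 a CCAAT box. Of 5 other mitotic kinesins, 3 held a CHR and 4 a CCAAT box. Of 19 transport and ciliary kinesins with a window, 3 held a CHR and 7 a CCAAT box.

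In 4 of the 6 windows a CHR followed a CCAAT box near the start, and these are shown because all 4 hold both motifs in this order. The distance limit of 60 bases between the motifs was set after the windows were seen, and 1.99% of all windows held such a pair. Kif22 held a second pair farther upstream, with 13 bases between box and CHR. Capitals mark a CCAAT box, read here from the other strand as ATTGG, and a CHR. The letters of the CHR stand as given above in Kif23 and Kif4 and as their reverse complement in Kif11 and Kif22, and each run ends at the base before the start or, for Kif23 and Kif4, shortly after it.
Kif11, chr19:37376322-37376381, + strand: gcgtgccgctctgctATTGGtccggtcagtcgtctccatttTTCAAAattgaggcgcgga
Kif22, chr7:127042421-127042480, - strand: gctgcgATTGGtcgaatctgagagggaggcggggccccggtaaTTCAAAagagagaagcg
Kif23, chr9:61946790-61946859, - strand: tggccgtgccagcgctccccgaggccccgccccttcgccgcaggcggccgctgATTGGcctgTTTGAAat
Kif4, chrX:100626005-100626091, + strand: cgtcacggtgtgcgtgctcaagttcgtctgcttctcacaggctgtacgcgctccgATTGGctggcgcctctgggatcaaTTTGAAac

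The CCAAT box in these runs was in the ATTGG orientation in all 4. Between box and CHR lay 21 bases in Kif11, 32 in Kif22, 4 in Kif23 and 19 in Kif4. The CHR began 19 bases before the start in Kif11 and 17 before it in Kif22, and at base 3 of the transcript in Kif23 and base 20 in Kif4. Matches describe letters in these windows, and binding was not measured.

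The comparison of siRNAs within quiescence asks whether Ift88 loss alters the arrest of suspended cells. All 7 kinesins rose in quiescent IFT88KD cells, by 0.53 to 1.48 log2 with a median of 1.29, while 2.88% of all genes rose and the median of all genes was -0.01. Kif11 measured 1.23, 1.33 and 1.5 on control and 2.72, 3.10 and 2.67 on IFT88KD arrays. All IFT88KD arrays were higher, and the rise was 1.48 (SE 0.17, adjusted p = 6.79e-06). Kif11 lay at percentiles 15.6 to 23.3 of the control arrays and 40.9 to 44.3 of the IFT88KD arrays.

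Among the cytokinesis motors, Kif20a measured 2.38, 2.45 and 2.69 on control and 3.28, 4.14 and 4.04 on IFT88KD quiescent arrays. The lowest IFT88KD array was replicate 1, and it still exceeded every control array. Kif20a rose by 1.31 (SE 0.17, adjusted p = 2.85e-05). Kif23 measured 2.25, 2.55 and 2.52 on control and 3.31, 3.98 and 3.91 on IFT88KD arrays, with the same array lowest, and rose by 1.29 (SE 0.17, adjusted p = 2.74e-05).

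Cenpe varied most between arrays. It measured 0.87, 1.02 and 1.58 on control and 1.6, 3.54 and 2.62 on IFT88KD quiescent arrays, so the lowest IFT88KD array barely cleared the highest control array. The rise was 1.43 (SE 0.36, adjusted p = 0.0189), with a 95% interval of 0.68 to 2.17.

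The chromokinesins differed in size. Kif22 measured 2.52, 2.52 and 2.56 on control and 3.18, 3.59 and 3.54 on IFT88KD quiescent arrays and rose by 0.91 (SE 0.18, adjusted p = 0.00367). Kif4 measured 2.77, 2.61 and 2.76 on control and 2.95, 3.40 and 3.36 on IFT88KD arrays and rose by 0.53 (SE 0.14, adjusted p = 0.0253). Kif2c measured 1.63, 2.00 and 2.20 on control and 2.23, 2.86 and 2.37 on IFT88KD arrays and rose by 0.55 (SE 0.15, adjusted p = 0.0346). For Kif2c the gap between the lowest IFT88KD and the highest control array was small.

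The arrays of the 2 siRNAs did not overlap for any of the 7 kinesins in quiescent cells, where 11.2% of all genes showed such a separation upwards. Kif11, Kif20a, Kif22 and Kif23 passed in each fit that left out 1 array. Cenpe, Kif2c and Kif4 were less secure, and the count was 4 of 7 without IFT88KD quiescent replicate 2 or 3, without control quiescent replicate 1 or 2, with quantile normalisation and with arrays of the compared groups only. Leaving out control quiescent replicate 3 also lost Kif4 (adjusted p = 0.0613).

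**Figure D2:**
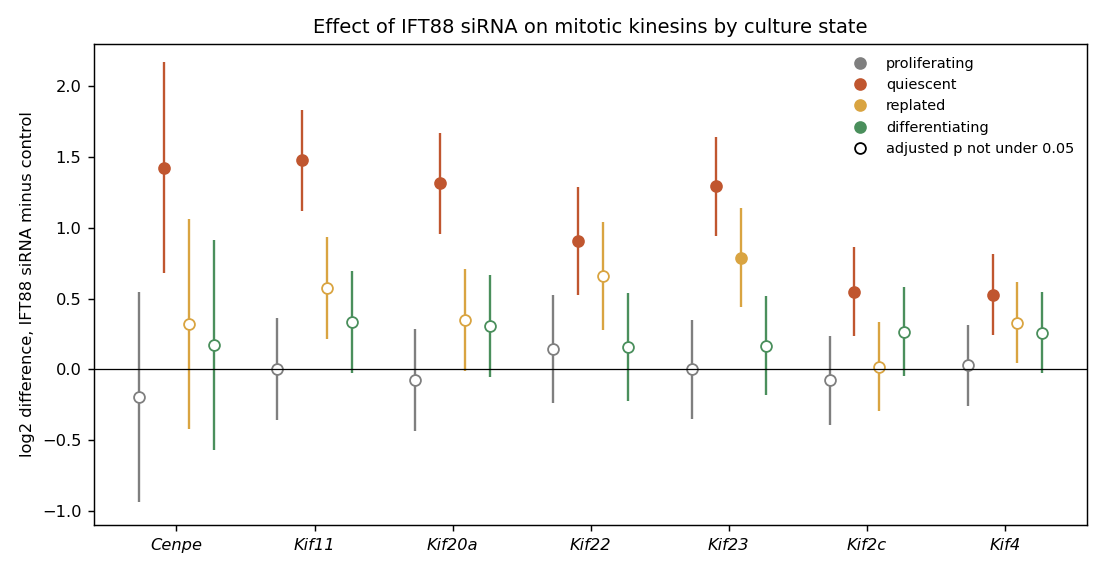
Log2 difference between IFT88KD and control arrays for each kinesin in 4 culture states; points are estimates from the 24-array fit, lines 95% intervals, and open points did not pass the threshold. The 7 quiescent points lie between 0.53 and 1.48, while the proliferating points lie between -0.20 and 0.15.

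Levels in quiescent IFT88KD cells stayed far from those of cycling cells. Kif23 was at 3.73 ± 0.36 log2 (SD, n = 3) there, against 7.89 ± 0.09 in proliferating IFT88KD cells. Averaged over the 7 kinesins, each centred on its own mean, the quiescent arrays stood at -2.27, -2.15 and -1.96 with control siRNA and at -1.47, -0.70 and -1.0 with IFT88 siRNA. Proliferating arrays stood at 2.62 to 2.83 with either siRNA. The 3 IFT88KD quiescent arrays spread over a wider range than the 3 control arrays.

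Genes that work with these motors are given from lists chosen with earlier results of these data known. Of 24 partners and spindle regulators 22 were measured. In quiescent IFT88KD cells 19 of them rose and 0 fell, against 2.88% and 2.31% of all genes, with a median of 1.18. Nusap1, which bundles spindle microtubules, rose by 1.89 (SE 0.16), Birc5, a chromosomal passenger, by 1.87 (SE 0.15), Bub1, a checkpoint kinase, by 1.79 (SE 0.21) and Racgap1, the partner of Kif23, by 1.73 (SE 0.13). The 3 that did not pass were Nek2 (0.38), Ckap5 (0.09) and Numa1 (-0.16), named after their values were seen.

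Among mitotic kinesins outside the 7, 2 of 5 were measured and both rose in quiescent IFT88KD cells, against 2.88% of all genes. Kifc1, a minus-end directed motor that focuses spindle poles, rose by 0.79 (SE 0.18, adjusted p = 0.0104), and Kif18a, which dampens chromosome movements, by 0.44 (SE 0.11, adjusted p = 0.0179). Of 26 kinesins of transport and cilia 18 were kept, with a median of -0.06. In limma 0 rose and 1 fell, against 2.88% and 2.31% of all genes. At an unadjusted p under 0.05, 0 were higher and 3 lower, against 7.59% and 8.74% of all genes. The one that fell was Kif3a, a motor of intraflagellar transport, by 0.42 (SE 0.10, adjusted p = 0.0123).

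Known transcriptional regulators of mitotic genes did not pass in the same comparison. Of 21, 17 were measured, and 0 passed in quiescent IFT88KD cells in limma, with a median of 0.06. At an unadjusted p under 0.05 in limma, 5 were higher and 0 lower, against 7.59% and 8.74% of all genes. Foxm1, an activator of mitotic genes, changed by 0.48 (SE 0.19, adjusted p = 0.175), Mybl2, which encodes B-Myb, by 0.28 (SE 0.15, adjusted p = 0.355) and Cdkn1a, which encodes the inhibitor p21, by -0.09 (SE 0.23, adjusted p = 0.917). These 3 were named after their values were seen.

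**Figure D3:**
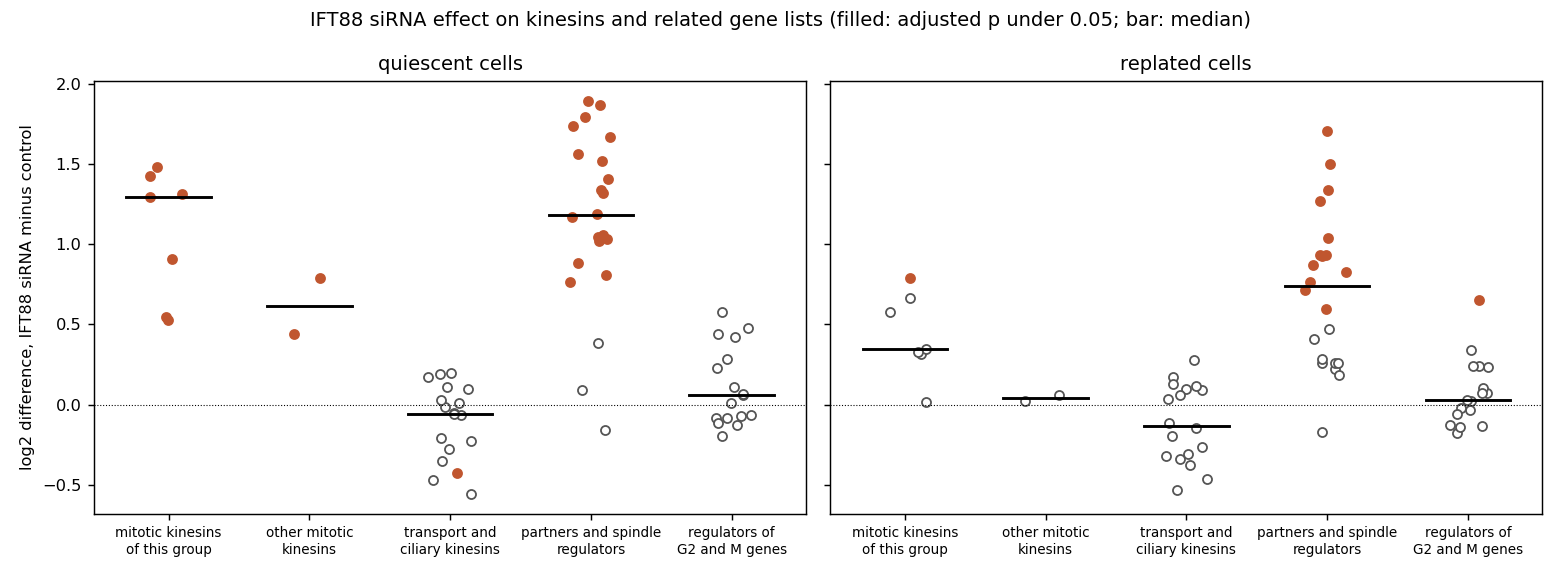
Log2 difference between IFT88KD and control arrays in quiescent (left) and replated cells (right) for the 7 kinesins and 4 related gene lists; each point is a gene, filled where it passed the threshold, and bars are medians. In quiescent cells the medians are 1.29 for the 7 kinesins, 1.18 for partners and -0.06 for transport kinesins.

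Some cell type markers moved in the same comparison. Of 5 macrophage markers 2 passed the filter, and Cd68 fell by 1.32 in quiescent IFT88KD cells while Csf1r changed by -0.50. Adgre1, Itgam and Ptprc were under the filter. The mean log2 level of the 5 macrophage markers ran from 2.08 to 2.17 on quiescent control and from 1.57 to 1.83 on quiescent IFT88KD arrays. Of 4 fibroblast markers 2 passed the filter, and Pi16 fell by 0.46 and Pdgfra changed by -0.35, while Dpt and Thy1 were under the filter. The mean level of the 4 ran from 4.03 to 4.17 on control and from 3.86 to 3.89 on IFT88KD quiescent arrays. The 6 differentiating muscle markers changed by 0.45 to 0.71. In limma 0 passed the threshold and 1 had an unadjusted p under 0.05, against 7.59% of all genes higher at that level. Their mean level ran from 6.83 to 7.36 on control and from 7.45 to 7.89 on IFT88KD arrays. The 5 myoblast markers changed by 0.03 to 0.62. In limma 0 passed the threshold and 2 had an unadjusted p under 0.05, against the same 7.59% of all genes. Their mean level ran from 6.30 to 6.44 on control and from 6.70 to 6.80 on IFT88KD arrays. The ranges of all 4 lists did not overlap between the siRNAs, and their part in the rise of the kinesins was not tested.

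Replating puts suspended cells back on a surface. After 2 h there, the control kinesins were still far below proliferating levels, for example Kif11 at 1.38, 1.17 and 1.09 log2. Against quiescent control cells Kif22 fell by 1.19 (SE 0.18), Kif20a by 1.10 (SE 0.17), Kif4 by 0.93 (SE 0.14), Kif2c by 0.57 (SE 0.15) and Kif23 by 0.55 (SE 0.17), while Kif11 changed by -0.14 (adjusted p = 0.471) and Cenpe by -0.08 (adjusted p = 0.839). In this comparison 66.8% of all genes fell and the median of all genes was -0.61, so 5 of 7 lower is near the background. With quantile normalisation, which took the median of all genes to -0.10, 3 of 7 were lower, Kif20a (-0.70), Kif22 (-0.80) and Kif4 (-0.42), against 37.1% of all genes. With each array centred on its median only Kif11 passed, with the opposite sign (0.72, adjusted p = 7.93e-04), where 46.3% of all genes were higher. The direction therefore depends on the scaling for Kif11, Cenpe, Kif23 and Kif2c. The values of Kif20a, Kif22 and Kif4 were below 0 under all 3 scalings. With median centring they were only -0.24, -0.33 and -0.08 and did not pass.

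In IFT88KD cells, Kif20a and Kif22 were lower after replating than in suspension under all 3 scalings. Kif20a went from 3.28, 4.14 and 4.04 on quiescent to 1.95, 1.78 and 1.52 on replated IFT88KD arrays, a fall of 2.07 (SE 0.17). The difference was -1.52 with quantile normalisation and -1.21 with median centring. Kif22 fell by 1.43 (SE 0.18), at -0.77 and -0.58 under the same settings. In the deposited values all 7 were lower, against 66.8% of all genes. With quantile normalisation 4 of 7 were lower, against 35.7%, and with median centring 2 of 7, against 20.3%, so the calls of the other 5 depend on the scaling. Leaving out IFT88KD quiescent replicate 2 lost Cenpe (-0.72, adjusted p = 0.0585).

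**Figure D4:**
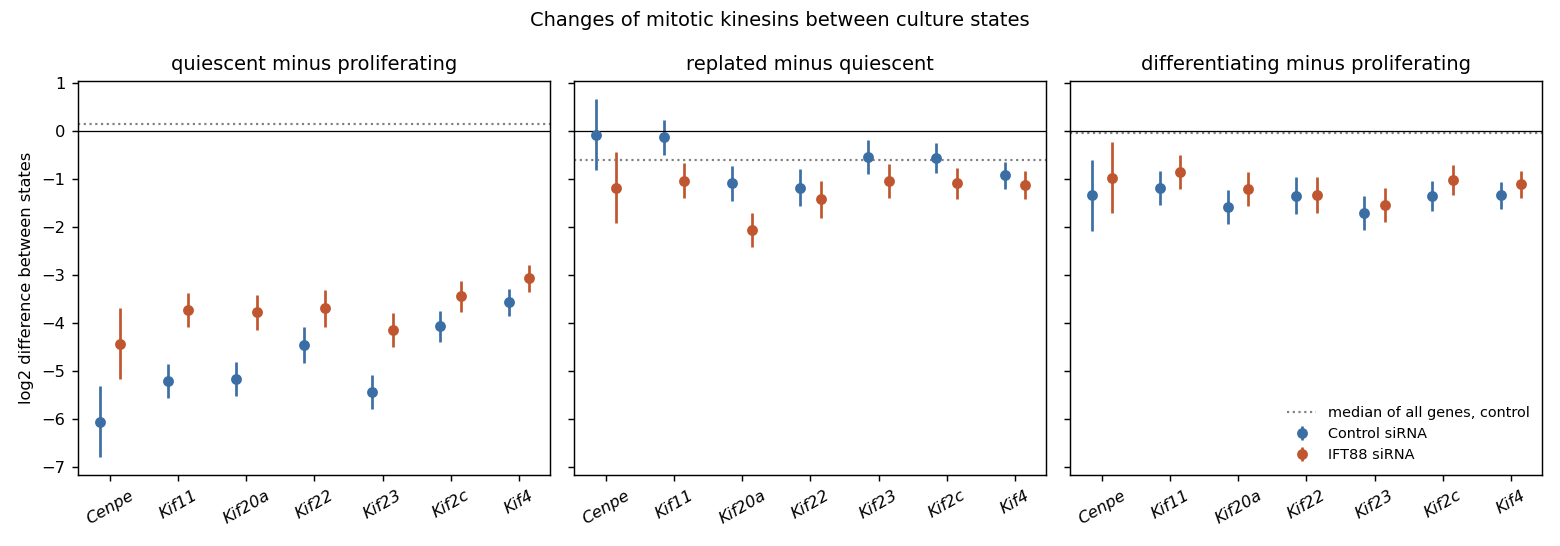
Log2 differences of the 7 kinesins between culture states for control and IFT88KD cells, with 95% intervals; the dotted line is the median change of all genes in control cells. Changes into quiescence run from -6.06 to -3.08, those into differentiation from -1.72 to -0.87, and those after replating from -2.07 to -0.08, with all 7 IFT88KD points below the dotted line at -0.61.

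After replating, 1 of the 7 kinesins was higher in IFT88KD cells. Kif23 measured 1.87, 1.95 and 1.85 log2 on control and 3.04, 2.57 and 2.43 on IFT88KD replated arrays. All IFT88KD arrays were higher, and it rose by 0.79 (SE 0.17, adjusted p = 0.011). Over all genes 1.5% rose. Without IFT88KD replated replicate 1 it no longer passed (0.61, adjusted p = 0.0896), nor with the mean of its probe sets (0.26, adjusted p = 0.194) or with arrays of the compared groups only (adjusted p = 0.0725).

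Kif22 measured 1.32, 1.46 and 1.24 on control and 2.07, 1.64 and 2.3 on IFT88KD replated arrays, and its change was 0.66 (SE 0.18, adjusted p = 0.0575). Kif11 measured 1.38, 1.17 and 1.09 on control and 2.19, 1.64 and 1.55 on IFT88KD arrays, and its change was 0.58 (SE 0.17, adjusted p = 0.0845). Both separated fully between the siRNAs. Kif20a changed by 0.35 (adjusted p = 0.37), Kif4 by 0.33 (adjusted p = 0.258), Cenpe by 0.32 (adjusted p = 0.773) and Kif2c by 0.02 (adjusted p = 0.98). Arrays did not overlap for 5 of the 7, against 9.42% of all genes.

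With same-numbered replicates of a state treated as blocks, Kif11 (adjusted p = 0.00379), Kif22 (adjusted p = 0.00887) and Kif23 (adjusted p = 7.31e-04) passed in replated cells, which made 3 of 7, while the share of all genes that rose was 6.27% in that fit. Quantile normalisation gave the same 3, against 1.7% of all genes. Without IFT88KD replated replicate 2 Kif22 passed beside Kif23 (adjusted p = 0.0197), which made 2 of 7. All replated control arrays lay at or below percentile 39.9 for the 7 kinesins, so sizes are uncertain.

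Mean levels of cell type markers also separated by siRNA in replated cells. The mean level of the macrophage markers ran from 1.85 to 1.96 on control and from 1.49 to 1.62 on IFT88KD arrays, and that of the fibroblast markers from 3.28 to 3.34 and from 2.82 to 3.17. For the differentiating muscle markers it ran from 5.71 to 6.16 and from 6.42 to 6.72, and for the myoblast markers from 5.71 to 5.97 and from 5.99 to 6.20. None of these 4 pairs of ranges overlapped, and their part in the kinesin values was not tested. Of the partners and spindle regulators 13 of 22 rose in replated IFT88KD cells, against 1.5% of all genes, with a median of 0.74. Racgap1 was among them and rose by 1.27 (SE 0.13). Neither Kifc1 (0.02) nor Kif18a (0.06) passed. Of the regulators of mitotic genes 1 of 17 rose, against 1.5% of all genes. It was E2f8, a repressor of cell cycle genes that was named after its value was seen. E2f8 rose by 0.65 (SE 0.17, limma adjusted p = 0.0429).

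In proliferating cells the siRNAs could not be told apart by these genes. The 7 changes ran from -0.20 for Cenpe to 0.15 for Kif22. Of them limma called 0, where 0.36% of all genes changed in either direction. At an unadjusted p under 0.05 in limma there were also 0, against 3.03% of all genes higher and 3.12% lower. For Kif23 the 95% interval ran from -0.35 to 0.35 and for Kif4 from -0.26 to 0.31, so a change as large as that of Kif23 in quiescent cells lies outside the interval. For Cenpe it ran from -0.94 to 0.55.

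In differentiating cells all 7 changes were above 0, from 0.16 for Kif22 to 0.34 for Kif11, with a median of 0.26 against 0.01 for all genes. In limma 0 passed, where 0.0814% of all genes rose. An unadjusted p under 0.05 was reached by 0, against 2.55% of all genes higher at that level. The arrays separated for Kif20a, at 6.21, 5.91 and 6.14 on control and 6.24, 6.47 and 6.48 on IFT88KD arrays, and for Kif2c, which made 2 of 7 against 6.02% of all genes. Since the 7 mRNAs move together on an array, their common direction is not 7 separate observations.

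Differences of the siRNA effect between states were tested as interactions. The effect was larger in quiescent than in proliferating cells for Kif11 by 1.47 (SE 0.24, adjusted p = 0.00133), Kif20a by 1.39 (SE 0.24, adjusted p = 0.00242) and Kif23 by 1.29 (SE 0.24, adjusted p = 0.00412), where 0.895% of all genes had a larger effect. Cenpe differed by 1.62 (SE 0.51, adjusted p = 0.173), Kif22 by 0.76 (adjusted p = 0.259), Kif2c by 0.62 (adjusted p = 0.261) and Kif4 by 0.50 (adjusted p = 0.401). With blocks Cenpe (adjusted p = 0.0187) and Kif22 (adjusted p = 0.0472) passed too, which made 5 of 7 against 2.29% of all genes. Kif11, Kif20a and Kif23 passed in each of the 12 fits that left out 1 array.

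The same 3 kinesins had a smaller effect in differentiating than in quiescent cells, Kif11 by -1.14 (SE 0.24, adjusted p = 0.017), Kif23 by -1.13 (SE 0.24, adjusted p = 0.0161) and Kif20a by -1.01 (SE 0.24, adjusted p = 0.0437), against 0.721% of all genes. These calls depended on single arrays and settings, and of 12 fits that left out 1 array Kif11 passed in 8, Kif23 in 7 and Kif20a in 3. Kif20a did not pass with quantile normalisation (adjusted p = 0.107), nor did Kif11 (adjusted p = 0.181). With the mean of probe sets neither Kif23 (-0.25, adjusted p = 0.638) nor Kif11 (-0.65, adjusted p = 0.15) passed. With blocks Kif22 passed too (-0.75, adjusted p = 0.0425), which made 4 of 7 against 3.03% of all genes. In the fits that left out 1 array, 0 of 7 passed without IFT88KD quiescent replicate 2, without control quiescent replicate 1, without IFT88KD differentiating replicate 1 or without control differentiating replicate 3, and 1 without IFT88KD quiescent replicate 3. Both interactions use the quiescent arrays, so they are not independent of each other.

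Between replated and quiescent cells the effects differed by -0.97 for Kif20a (SE 0.24, adjusted p = 0.382) and -0.90 for Kif11 (SE 0.24, adjusted p = 0.513). In limma 0 of 7 passed, where 0.0465% of all genes were lower. At an unadjusted p under 0.05, 5 of 7 were lower, against 1.6% of all genes. Kif11 passed with blocks (adjusted p = 0.0315), where 0.105% of all genes were lower, and Kif20a passed without IFT88KD quiescent replicate 1 (adjusted p = 0.0258). Between differentiating and proliferating cells limma called 0 of 7, where 0.0116% of all genes had a larger effect. At an unadjusted p under 0.05 there were also 0, against 1.8% of all genes with a larger effect.

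Probe sets of 1 gene did not always report the same size. Of the 16 probe sets 15 passed the filter when each was tested on its own, and 11 rose in quiescent IFT88KD cells with 0 lower. In that fit 2.73% of the 8600 probe sets that represent a gene rose and 2.06% fell. The 3 Kif22 probe sets rose by 0.91, 0.85 and 0.77. Of the 3 Kif11 probe sets, 2 rose by 1.48 and 1.10 and the third changed by 0.12 (SE 0.22). Of the 4 Kif2c probe sets, the brightest, set aside because its design allows cross-hybridisation, rose by 1.43 (SE 0.22), against 0.55 for the one used, and 2 dim ones changed by 0.08 and -0.11. A second Kif23 probe set changed by 0.12 (SE 0.21). It lay between percentiles 2.89 and 21.5 on the quiescent arrays of either siRNA. The Kif11 probe set that changed by 0.12 lay between percentiles 7.57 and 18.6 there, so both were near the background. In control cells all 15 fell on entry into quiescence, by 0.58 to 6.06, against 29.3% of the probe sets that represent a gene. When each gene was the average of its probe sets, the quiescent rise was 0.90 for Kif11 and 0.45 for Kif23, both still past the threshold.

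**Figure D5:**
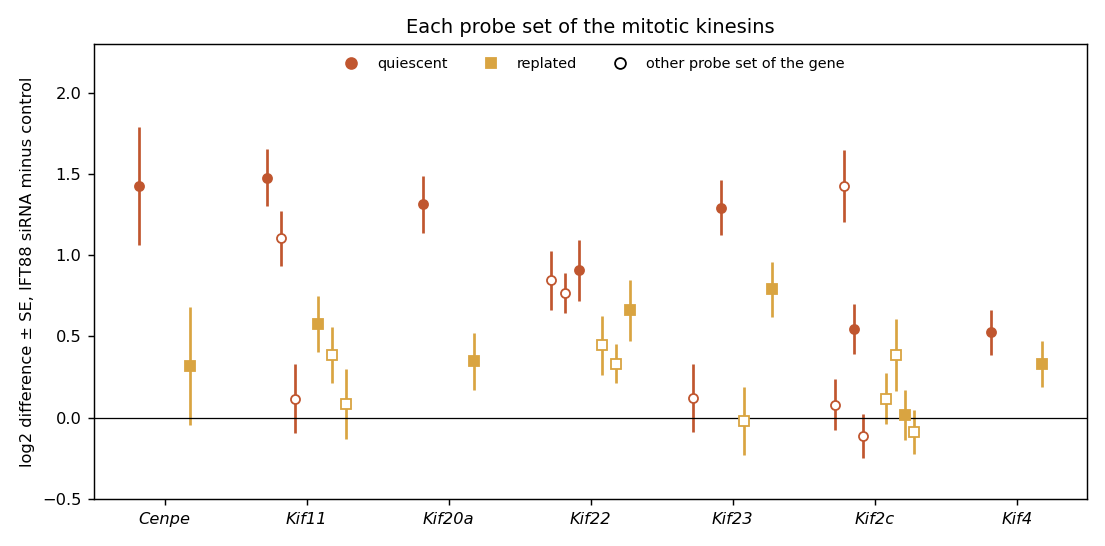
Log2 difference between IFT88KD and control arrays for each of 15 probe sets, in quiescent (circles) and replated cells (squares), with standard errors; filled points are the probe sets used for their gene. Kif22 probe sets run from 0.77 to 0.91 in quiescent cells, while those of Kif2c run from -0.11 to 1.43.

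The 7 kinesins followed one another closely over the 24 arrays. Pearson's r of each with the mean of the other 6 ran from 0.988 for Cenpe to 0.996 for Kif23, a description that rests on the spread between culture states shared by all. Of the 8593 other genes kept, the 5 with the highest r to the mean of the 7 were Dlgap5 (0.997), Aurka (0.997), Melk (0.997), Spdl1 (0.996) and Cdca3 (0.996). As many as 721 other genes had an r of at least 0.9.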

How the data were processed

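The log2 signals of 22690 Affymetrix probe sets on 24 arrays were used as deposited by the authors. Per the submitters' processing notes, the tools were affy, GCOS and Affymetrix Expression Console. The normalisation method is not given in the sources used here, and scanner intensities were not analysed here. The kinesins and the related gene lists were chosen with earlier results of these data known.

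Probe sets assigned to 1 gene were kept. Each gene was represented by its brightest probe set over all arrays, and a set whose name ends in x_at was used only if the gene had no other. The 8600 genes tested exceeded the 40th percentile of signal on 3 or more arrays. limma 3.58.1 in R 4.3.3 fitted the 8 groups together, and Benjamini-Hochberg adjusted p-values under 0.05 over all genes were called. The rule for named genes took all kinesins of the group and both further mitotic kinesins. Of each other list it took up to 4 genes with the largest change past the threshold in quiescent cells. Outside this rule, Nek2, Ckap5, Numa1, Foxm1, Mybl2, Cdkn1a and E2f8 were named after their values were seen.

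Replicate numbers come from the sample titles. Deviations of IFT88KD and control arrays with the same number and state correlated at 0.252 to 0.708, so the numbers pair the arrays within a state. The main fit did not use this pairing. As an alternative, siRNA comparisons were fitted with same-numbered arrays of a state as blocks. Comparisons between states were fitted with the replicate number alone as the block. Same-numbered arrays of different states with the same siRNA correlated at -0.061 to 0.421. With blocks the share of all genes higher with IFT88 siRNA went from 2.88% to 6.72% in quiescent cells. In replated cells it went from 1.5% to 6.27%, so siRNA calls missing from the main fit may rest on the unused pairing. Other alternatives were quantile normalisation, median centring, other filters and probe set rules, arrays of the compared groups only, and leaving out each array. On data simulated for the quiescent siRNA comparison over 8600 genes, 62.7% of 67 changes of 0.5 log2 and 92.5% of 67 changes of 1 log2 were called, and 6 of 176 calls were false. The simulated noise was independent between genes and arrays and had the same spread in every group. It held no pairing of arrays and no shared movement of genes, so these rates need not hold for the real arrays.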

Additional observations from a re-analysis of the deposited data

Results flagged for a closer look

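The effect of IFT88 siRNA differed between culture states, by a test of the difference itself in limma, for 3 of the 7 kinesins. Between quiescent and proliferating cells the difference of the effects was 1.47 for Kif11 (adjusted p = 0.00133), 1.39 for Kif20a (adjusted p = 0.00242) and 1.29 for Kif23 (adjusted p = 0.00412). Between differentiating and quiescent cells it was -1.14 for Kif11 (adjusted p = 0.017), -1.01 for Kif20a (adjusted p = 0.0437) and -1.13 for Kif23 (adjusted p = 0.0161). Both tests share the quiescent arrays. The differences between differentiating and quiescent cells were less secure. Of 12 fits that left out 1 array, Kif11 passed in 8, Kif23 in 7 and Kif20a in 3. Between quiescent and proliferating cells each of these kinesins passed in all 12. The fall of Ift88 mRNA passed in quiescent cells but not in proliferating or differentiating cells, and its part in these differences was not tested. In quiescent cells Cd68 fell in the same arrays by 1.32, and its part in these differences was not tested.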

How the results depend on the processing

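The falls into quiescence, the falls into differentiation and the rise from quiescence to differentiation kept all 7 calls under each alternative that used all arrays. The count of kinesins higher in quiescent IFT88KD cells went from 7 to 4 with quantile normalisation and with arrays of the compared groups only, and ran from 4 to 7 with 1 array left out. In replated cells the count went from 1 to 3 with quantile normalisation, 3 with the replicate block and 0 with arrays of the compared groups only, and ran from 0 to 2 with 1 array left out. Between replated and quiescent cells it went from 5 to 3 (quantile) and 1 (median centring) for control and from 7 to 4 and 2 for IFT88KD. For the siRNA effect in quiescent minus proliferating cells it went from 3 to 5 with the mean of probe sets and 5 with the replicate block. For replated minus quiescent it went from 0 to 1 with the replicate block and ran from 0 to 1 with 1 array left out. For differentiating minus quiescent it went from 3 to 1 with quantile normalisation, the mean of probe sets or arrays of the compared groups only, and ran from 0 to 3 with 1 array left out. The block changed no other of these counts by over 1.5 times. The cause of these shifts was not tested.

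Signs turned mostly for values near 0, but also for calls of the main fit between replated and quiescent control cells. In proliferating cells Kif11 was at -0.0029 with median centring and -0.11 with the mean of probe sets, and Kif23 at -0.0056 and -0.11. For control replated minus quiescent cells Cenpe was at 0.0025 with quantile normalisation and 0.77 with median centring, and Kif11 at 0.013 and 0.72. With median centring Kif23 was at 0.31 and Kif2c at 0.29. In the main limma fit both were called lower, Kif23 at -0.55 (adjusted p = 0.00582) and Kif2c at -0.57 (adjusted p = 0.0018). For the difference of siRNA effects, replated minus quiescent, Kif22 was at 0.030 and Kif4 at 0.011 with quantile normalisation, and for differentiating minus proliferating Kif22 was at -0.0018 with median centring. With 1 array left out, proliferating values ran from -0.090 to 0.10 for Kif11, -0.16 to 0.012 for Kif20a, -0.068 to 0.058 for Kif23, -0.19 to 0.057 for Kif2c and -0.052 to 0.11 for Kif4. They ran from -0.034 to 0.049 for Kif2c in replated cells, -0.18 to 0.37 for Cenpe in differentiating cells, -0.23 to 0.13 for Cenpe between replated and quiescent control cells, and -0.14 to 0.21 for Kif22 in the difference of differentiating and proliferating effects. Quiescent and replated signals near the background limit the sizes.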
